A study of Homo sapiens with 9 samples.

Results

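The metallothionein family was examined in HepG2 cells with and without knockdown of the long non-coding RNA *TUG1*. Members were the genes of both count tables with a symbol made of MT1 or MT2 and a single further letter, together with *MTF1*. The rule found 6 of the 12854 genes that the tables share, namely *MT2A*, *MT1E*, *MT1G*, *MT1F*, *MT1X* and *MTF1*. GENCODE 29 names 9 protein-coding genes with such a symbol, of which 5 were listed, and the others were not analysed here. The rule used symbols and presence in both tables, which do not hold genes with few counts, and no test result. The members were chosen with earlier results of these data known.

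RNA-seq was done on total RNA of HepG2, an established human line with an epithelial-like appearance, which the study uses as hepatocellular carcinoma cells. The study asked how loss of *TUG1* changes the transcriptome of liver cancer cells. The control cells, sh-Con, carry a control short hairpin RNA (shRNA), and their genotype is labelled WT. The sh1-*TUG1* and sh2-*TUG1* cells each carry 1 of 2 hairpins against *TUG1*, and their genotype is labelled TUG1 knockdown. All 3 lines were made with the lentiviral vector Tet-pLKO-Puro, which expresses the hairpin upon doxycycline, so each group is a single stable line of a single cell line. The dose and duration of doxycycline for these libraries were not given in the sources used here. Each group has 3 libraries, which the study calls technical replicates, so SDs and p-values cover the spread between these libraries and not between cultures. The level of *TUG1* itself was not analysed here.

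The libraries held 33054291 to 39393293 counts. Both knockdown lines were compared with the same 3 control libraries, whose counts were identical in the 2 tables for all 12854 shared genes, so the 2 comparisons are not independent. All 8 hepatocyte-lineage markers were listed, with albumin (*ALB*) at 13510 counts per 1000000 (CPM) in sh-Con. Of 6 markers of leukocytes, endothelium, mesenchyme and bile duct, only *PECAM1* was listed, at 7.65 CPM in sh-Con. In bulk RNA, fewer cells that express a gene and less RNA per cell cannot be told apart.

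Metallothioneins are small, cysteine-rich proteins that bind zinc, copper and cadmium through clusters of thiolates, and they buffer the free metal of the cell. The liver is a main site of their synthesis, where zinc, cadmium, glucocorticoids and oxidative stress are known inducers. *MTF1* encodes the zinc-sensing transcription factor that binds metal response elements, short motifs repeated in the promoters of these genes.

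The 5 metallothionein genes lie together on chromosome 16 of GRCh38, from base 56608199, where *MT2A* starts, to base 56684196, where *MT1X* ends, a stretch of 76.0 kb. *MT1E* lies at chr16:56625475-56627112, *MT1F* at chr16:56657694-56660698 and *MT1G* at chr16:56666731-56668065. *MT1G* is on the minus strand and the other 4 are on the plus strand. *MTF1* lies elsewhere, at chr1:37809567-37859620 on the minus strand. The annotation places *AC026461.1*, a processed transcript, over *MT1X* on the same strand and the pseudogene *AL929472.4* over *MTF1* on the other strand, and the counting strand was not given in the sources used here.

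The coding sequences of the 5 genes are near copies, and their starts show bases at which the members differ. In GENCODE 29 the principal transcript of each metallothionein gene has 3 exons and 186 coding bases including the stop codon. Identity between pairs ranged from 88.7% (*MT1F* and *MT1X*) to 95.2% (*MT2A* and *MT1G*). The first 30 coding bases are given 5′ to 3′, with bases that differ from *MT2A* in capitals.
MT2A: atggatcccaactgctcctgcgccgccggt
MT1E: atggaCcccaactgctcTtgcgccAcTggt
MT1G: atggaCcccaactgctcctgTgccgcTggt
MT1F: atggaCcccaactgctcctgcgccgcTggt
MT1X: atggaCcccaactgctcctgcTcGCcTgTt

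In these stretches *MT1F* differed from *MT2A* at 2 bases, *MT1G* at 3, *MT1E* at 4 and *MT1X* at 6. Over the whole transcripts, the share of 50-base stretches found unaltered in another gene of the family was lowest for *MT1F* (1.22%) and highest for *MT1G* (16.5%). No stretch of 100 or 150 bases was shared. How the counting split reads that match 2 members, and the read length, were not given in the sources used here, so the effect of shared reads on these counts was not tested.

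Promoters of *MT2A*, *MT1X* and *MTF1* were taken from RefSeq on GRCh38.p14, each from 250 bases before to 50 bases after the start. The metal response element core was searched as TGCACNC or TGCGCNC on both strands. The *MT2A* promoter (chr16:56608334-56608633, plus strand) held 8 matches, a number reached by 7 of 35116 promoters (0.0199%). The *MT1X* promoter (chr16:56682220-56682519, plus strand) held 4 matches, a number reached by 0.601% of promoters. The *MTF1* promoter held 0 matches, and 29.6% of all promoters held at least 1. With A alone at the variable position *MT2A* had 6 matches and *MT1X* had 2, and with G alone each had 2. These are letter matches, not measured binding. The RefSeq start of *MT2A* lies downstream of the GENCODE gene start used above. The windows below are the 3 nearest upstream of the start of each gene, on the strand of the gene, with the matched core in capitals and the distance of the match from the start in the name.
MT2A, 88 before the start, core on the minus strand: cagcgcggggcGTGTGCAggcagcgcccg
MT2A, 54 before the start: ggcggggctttTGCACTCgtcccggctct
MT2A, 8 before the start: gcttgccgcgcTGCACTCcaccacgcctc
MT1X, 122 before the start: tcacgggttgcTGCACCCggcccaggatc
MT1X, 78 before the start, core on the minus strand: tcagcaggggcGGGTGCAaggacgaggcg
MT1X, 53 before the start: ggcggggcctcTGCGCCCggccctcttcc

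*MT2A* was the most abundant member in every group. Compared per kilobase of the union of exons, its mean level in sh-Con was 106.0 CPM per kb (CV 18.9%, n = 3), followed by *MT1E* at 30.5 ± 5.59 (SD), *MT1G* at 14.2 ± 2.61, *MT1F* at 4.36 ± 0.696, *MT1X* at 3.33 ± 0.336 and *MTF1* at 1.55 ± 0.0852 CPM per kb. *MT1F* and *MT1X* did not differ beyond their spread on this scale. The length used matters for the lower members: with the principal transcript, an alternative chosen after seeing the data, *MT1F* stood at 11.9 ± 1.91 and *MT1X* at 13.1 ± 1.33 CPM per kb, and *MT2A* at 175 ± 33.1. The values below are CPM without a length term and serve to compare libraries for a single gene.

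Most of the family was lower in both knockdown lines, with a larger difference in sh2-*TUG1*. A differentially expressed gene (DEG) had a fold change over 1.5 in either direction and a Benjamini–Hochberg adjusted p under 0.05 in edgeR's quasi-likelihood test over all genes. In sh1-*TUG1*, 3 of the 5 metallothionein genes were lower DEGs (*MT2A*, *MT1E* and *MT1X*), where 2.52% of all 13017 genes were. In sh2-*TUG1* all 5 were lower DEGs, where 8.97% of 12953 genes were. Between the lines, 4 of 5 were lower DEGs in sh2-*TUG1* than in sh1-*TUG1*, where 8.04% of 12854 genes were. By adjusted p alone the counts were 3, 5 and 5 of 5 lower, where 12.3%, 21.9% and 21.7% of all genes were. The median log2(fold change) over all genes was 0.003, −0.005 and −0.001 in the 3 comparisons. *MTF1* was a DEG in none of them, and its unadjusted p was 0.179, 0.0487 and 0.378.

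**Figure D1:**
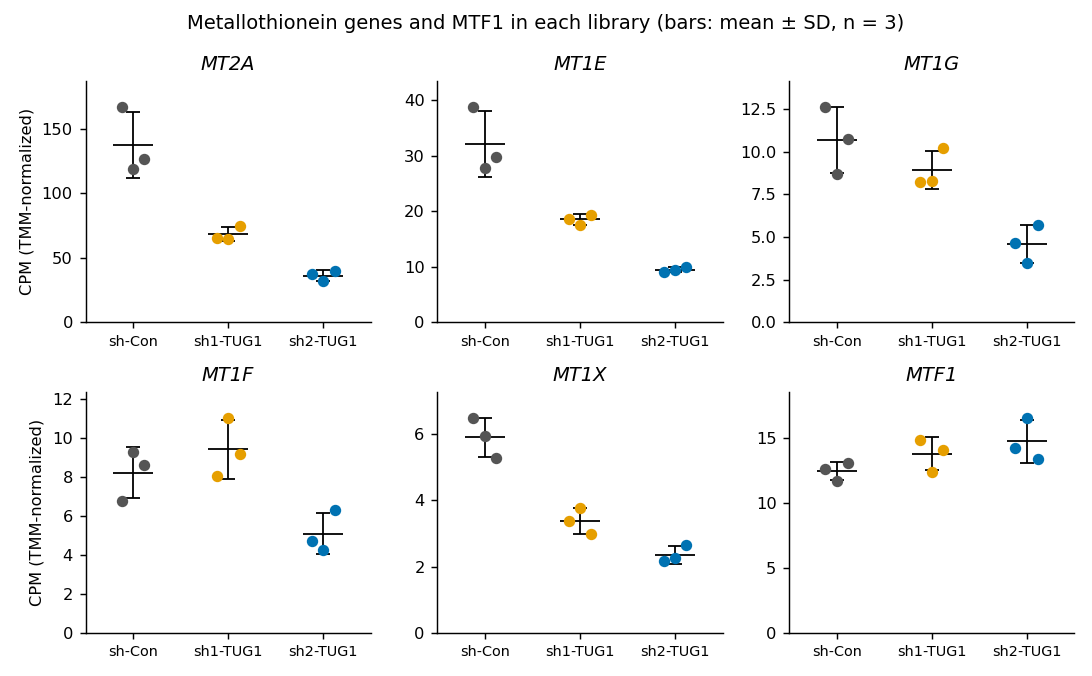
TMM-normalized CPM (y axis, from 0) of the 5 metallothionein genes and *MTF1* in each library by group (x axis); points are libraries, and bars are the mean ± SD of 3. *MT2A* and *MT1E* separate into 3 steps, while *MT1F* is lower in sh2-*TUG1* alone and *MTF1* is not lower in either line.

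*MT2A*, the main metallothionein of most human cells, carried most of the family's reads. It stood at 167.3, 118.8 and 126.9 CPM in the sh-Con libraries, at 65.5, 64.9 and 74.4 in sh1-*TUG1* and at 37.2, 31.6 and 39.6 in sh2-*TUG1*. The 3 groups did not overlap, an order of lower libraries that 20.2% of all genes showed for sh1-*TUG1* against sh-Con, 27.3% for sh2-*TUG1* against sh-Con and 27.6% between the lines. The first control library stood above the other controls. Against sh-Con, sh1-*TUG1* had a log2(fold change) of −1.01 (SE = 0.115, adjusted p = 0.00026), a level 2.02-fold lower than in sh-Con. In sh2-*TUG1* it was −1.93 (SE = 0.130, adjusted p = 5.23e-06), 3.81-fold lower. sh2-*TUG1* was below sh1-*TUG1* by a log2(fold change) of −0.92 (SE = 0.122, adjusted p = 0.000113). Ordered from the lowest log2(fold change), *MT2A* ranked 122 of 13017 genes in sh1-*TUG1* and 55 of 12953 in sh2-*TUG1*. Without the first control library, the value moved to −0.85 in sh1-*TUG1* and −1.77 in sh2-*TUG1*.

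*MT1E* was the second most abundant member. Its levels were 38.8, 27.8 and 29.7 CPM in sh-Con, 18.6, 17.5 and 19.4 in sh1-*TUG1* and 9.11, 9.34 and 9.93 in sh2-*TUG1*. Again the groups did not overlap, and the first control library was the highest. Against sh-Con, sh1-*TUG1* had a log2(fold change) of −0.79 (SE = 0.116, adjusted p = 0.00104) and sh2-*TUG1* of −1.76 (SE = 0.124, adjusted p = 6.64e-06), which are 1.73-fold and 3.39-fold lower. Between the lines it was −0.97 (SE = 0.117, adjusted p = 5.34e-05). The spread of *MT1E* within the knockdown lines was close to that of read counting, with a CV of 4.96% (sh1-*TUG1*) and 4.47% for sh2-*TUG1* against 3.87% and 5.50% from Poisson counting alone. In sh-Con the CV was 18.3%, where counting gives 3.01%.

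*MT1X* had the fewest reads, 70 to 212 per library. It stood at 6.47, 5.94 and 5.28 CPM in sh-Con, 3.37, 3.78 and 2.97 in sh1-*TUG1* and 2.15, 2.25 and 2.64 in sh2-*TUG1*. Each knockdown library was below the lowest control, and every sh2-*TUG1* library was below every sh1-*TUG1* library. sh1-*TUG1* had a log2(fold change) of −0.81 (SE = 0.164, adjusted p = 0.00638) and sh2-*TUG1* of −1.33 (SE = 0.177, adjusted p = 0.000322). The step between the lines, −0.52 (SE = 0.174, adjusted p = 0.0305), passed the adjusted p but not the fold limit. That adjusted p was not under 0.05 without sh1-*TUG1* replicate 1 (0.0623) or 2 (0.106), or without sh2-*TUG1* replicate 1 (0.0888) or 2 (0.0791). In sh2-*TUG1* its CV of 11.1% was close to the 11.02% that counting alone gives, so depth limits how well this gene is measured.

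*MT1G* was lower in sh2-*TUG1*. Its levels were 12.6, 8.69 and 10.7 CPM in sh-Con, 8.23, 8.30 and 10.2 in sh1-*TUG1* and 4.65, 3.47 and 5.70 in sh2-*TUG1*. The sh1-*TUG1* libraries overlapped the controls, while the sh2-*TUG1* libraries were below all others. The log2(fold change) in sh1-*TUG1* was −0.26 (SE = 0.152, adjusted p = 0.249), which did not pass the test. In sh2-*TUG1* it was −1.21 (SE = 0.199, adjusted p = 0.00109), 2.31-fold lower than in sh-Con. Against sh1-*TUG1* it was −0.95 (SE = 0.190, adjusted p = 0.00189).

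*MT1F*, like *MT1G*, was lower in sh2-*TUG1*. Its levels were 6.77, 9.31 and 8.63 CPM in sh-Con, 8.05, 11.1 and 9.18 in sh1-*TUG1* and 4.74, 4.25 and 6.30 in sh2-*TUG1*. sh1-*TUG1* overlapped sh-Con, and all sh2-*TUG1* libraries were below all others. The first control library, the highest for *MT2A*, *MT1E*, *MT1G* and *MT1X*, was the lowest control for *MT1F*. The log2(fold change) of sh1-*TUG1* from sh-Con was 0.19 (SE = 0.159, adjusted p = 0.413), and that of sh2-*TUG1* was −0.69 (SE = 0.186, adjusted p = 0.0140). The latter was the smallest of the 5 differences in sh2-*TUG1*, and its adjusted p was not under 0.05 without sh-Con replicate 2 (0.0552), sh2-*TUG1* replicate 1 (0.0511) or sh2-*TUG1* replicate 2 (0.0531). Between the lines, *MT1F* was lower in sh2-*TUG1* by a log2(fold change) of −0.88 (SE = 0.181, adjusted p = 0.00218).

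*MTF1*, the transcription factor, was not lower in either line. It stood at 12.6, 11.7 and 13.1 CPM in sh-Con, 14.9, 12.4 and 14.1 in sh1-*TUG1* and 14.2, 16.6 and 13.4 in sh2-*TUG1*. All sh2-*TUG1* libraries were above all controls, an order that 27.1% of all genes showed, and sh1-*TUG1* overlapped sh-Con. The log2(fold change) from sh-Con was 0.14 for sh1-*TUG1* (SE = 0.0986, adjusted p = 0.329) and 0.24 for sh2-*TUG1* (SE = 0.105, adjusted p = 0.0950). RNA-seq does not measure the protein or its binding to zinc or DNA.

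**Figure D2:**
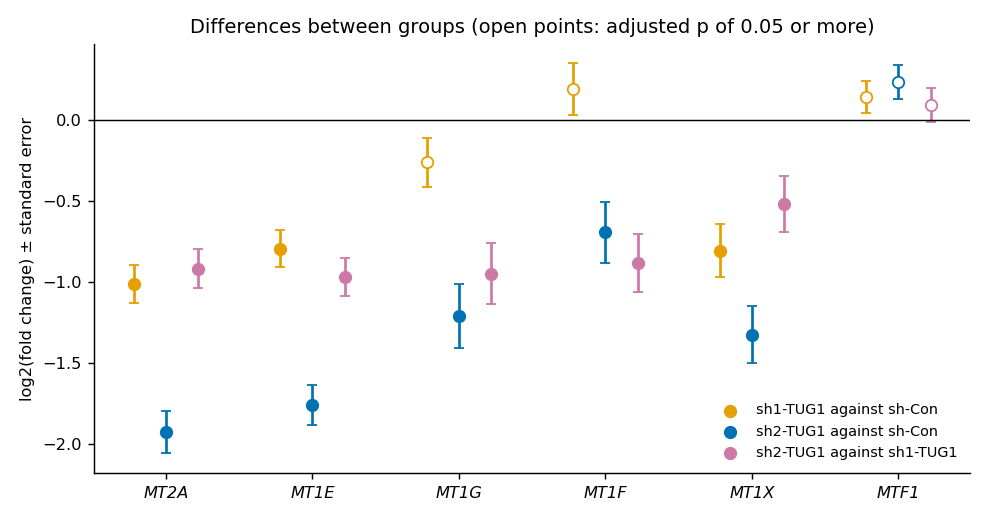
log2(fold change) ± SE (y axis) of each member (x axis) in the 3 comparisons, from edgeR; filled points have an adjusted p under 0.05. Every metallothionein gene is below 0 in sh2-*TUG1* against sh-Con, from −1.93 (*MT2A*) to −0.69 (*MT1F*), while *MTF1* stays above 0 with open points.

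Summed over the 5 genes, metallothionein reads were highest in sh-Con and lowest in sh2-*TUG1*. The sum was 231.9, 170.5 and 181.3 CPM in sh-Con, 103.7, 105.6 and 116.1 in sh1-*TUG1* and 57.8, 50.9 and 64.2 in sh2-*TUG1*. The means were 195 ± 32.8, 108.5 ± 6.70 and 57.6 ± 6.66 CPM (SD, n = 3), so the sh-Con mean was 1.79 times that of sh1-*TUG1* and 3.38 times that of sh2-*TUG1*. The groups did not overlap. No test was made of the sum.

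The makeup of the family also differed. *MT2A* gave 70.6 ± 1.34% of the summed CPM in sh-Con, 62.9 ± 1.31% in sh1-*TUG1* and 62.7 ± 1.40% in sh2-*TUG1*. *MT1F* had a share of 4.38 ± 1.31%, 8.71 ± 1.53% and 8.79 ± 0.892%, and that of *MT1G* was 5.49 ± 0.416%, 8.197 ± 0.518% and 7.91 ± 1.03%. *MT1E* kept a share of 16.5%, 17.1% and 16.5%. *MT1X* had a share of 3.06 ± 0.372%, 3.13 ± 0.520% and 4.08 ± 0.345%. Both knockdown lines thus had a lower share of *MT2A* and a higher share of *MT1F* and *MT1G* than every control library. For *MT2A*, *MT1F*, *MT1G* and *MT1E* the lines were close to each other although their summed levels differed. *MT1X* had a higher mean share in sh2-*TUG1* than in sh1-*TUG1*.

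The same was seen for *MT1F* and *MT1G* in the ratio of each gene to *MT2A* within a library, which needs no scaling between libraries. The log2 ratio of *MT1F* to *MT2A* was −4.06 ± 0.502 in sh-Con, −2.87 ± 0.270 in sh1-*TUG1* and −2.84 ± 0.166 in sh2-*TUG1*. sh1-*TUG1* differed from sh-Con by 1.19 and sh2-*TUG1* by 1.22, each with p = 0.1 in a two-sided exact permutation test, the smallest that 3 against 3 libraries allow. For *MT1G* the difference was 0.75 and 0.69 and for *MT1E* it was 0.22 and 0.17, all with an exact p = 0.1 and no overlap. For *MT1X* it was 0.19 in sh1-*TUG1*, with overlap (exact permutation p = 0.4), and 0.59 in sh2-*TUG1* (exact p = 0.1). Between the 2 knockdown lines, the ratios of *MT1E*, *MT1G*, *MT1F* and *MT1X* to *MT2A* overlapped, with an exact permutation p of 0.7, 0.7, 0.8 and 0.2. These 12 comparisons cannot pass the threshold with 3 libraries a group, so they stand as values.

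**Figure D3:**
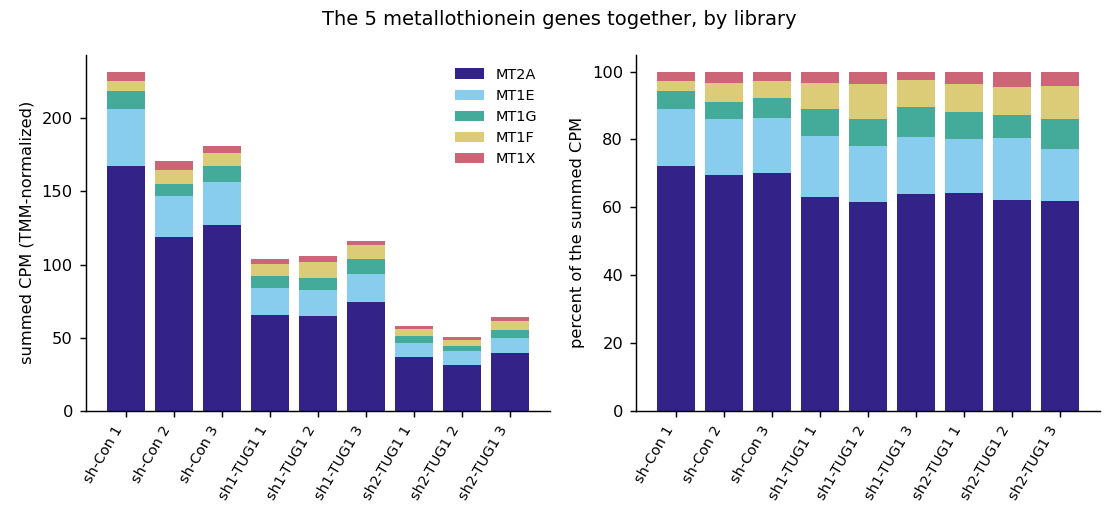
Stacked bars of the 5 metallothionein genes by library (x axis), as summed TMM-normalized CPM (left) and as percent of the sum (right). The sum is 170.5 to 231.9 CPM in sh-Con and 50.9 to 64.2 in sh2-*TUG1*, and *MT2A* is the largest share in all 9 libraries.

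None of the 9 genes examined on either side was a lower DEG against sh-Con, where 2.52% (sh1-*TUG1*) and 8.97% (sh2-*TUG1*) of all genes were. At these shares 9 genes are too few for a count of 0 to set them apart from other genes. Within 500 kb of the first and last metallothionein gene, 9 other genes in both tables were examined, from *NUDT21* to *FAM192A*. In sh1-*TUG1* 1 of 9 was a DEG, where 4.96% of all genes were, and in sh2-*TUG1* 0 of 9 were, where 13.3% of all genes were. By adjusted p alone, edgeR called 1 higher and 0 lower in sh1-*TUG1*, where 12.5% of all genes were higher, and 1 higher and 3 lower in sh2-*TUG1*, where 21.6% were higher and 21.9% lower. The unadjusted p was under 0.05 for 2 and 7 of the 9. Their median log2(fold change) was −0.04 and −0.17, against −0.79 and −1.33 for the 5 metallothionein genes. *NLRC5*, a regulator of MHC class I genes, was the DEG in sh1-*TUG1*, with 0.86 (SE = 0.151, adjusted p = 0.00295), and had 0.47 in sh2-*TUG1* (adjusted p = 0.0632). *CETP*, the cholesteryl ester transfer protein, had the lowest value in sh2-*TUG1*, −0.79 (SE = 0.339), which missed the threshold (adjusted p = 0.0874), and 0.10 in sh1-*TUG1*. In sh2-*TUG1* against sh1-*TUG1*, *CETP* was the 1 lower DEG of the 9 (−0.89, SE = 0.302, adjusted p = 0.0330), where 8.04% of all genes were. That call was lost when any sh1-*TUG1* library, or sh2-*TUG1* replicate 1 or 2, was left out. *NUP93*, the nearest of these genes, starts 45.9 kb beyond *MT1X* and had a log2(fold change) of −0.06 and −0.29.

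**Figure D4:**
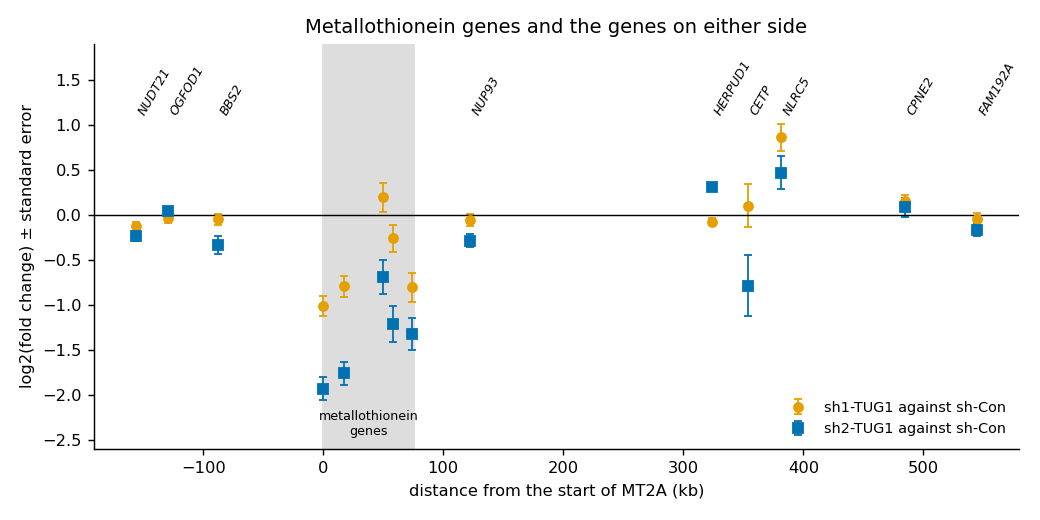
log2(fold change) ± SE against sh-Con (y axis) of the metallothionein genes and 9 neighbours, by distance from the start of *MT2A* in kb (x axis), taken at the near edge of each neighbour and at the start of each metallothionein gene; the shaded 76.0 kb holds the metallothionein genes. In sh2-*TUG1* the 4 lowest values, −1.93 to −1.21, all lie in the shaded part, and the neighbours have a median of −0.17.

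Zinc enters the cytosol through SLC39 importers and leaves it through SLC30 exporters. Of the 10 exporters of the list, 6 were listed, and 0 were DEGs in either line, where 4.96% and 13.3% of all genes were. By adjusted p alone, sh1-*TUG1* had 1 exporter higher and 2 lower, where 12.5% and 12.3% of all genes were, and sh2-*TUG1* had 2 higher and 1 lower, where 21.6% and 21.9% were. The unadjusted p was under 0.05 for 3 in each line. *SLC30A1*, the plasma membrane exporter and a known *MTF1* target, had 0.14 in sh1-*TUG1* (adjusted p = 0.301) and a log2(fold change) of 0.31 in sh2-*TUG1* (adjusted p = 0.0218). The latter was not under 0.05 without sh2-*TUG1* replicate 1 (0.0777) or 2 (0.0607). Its levels were 91.0, 118.1 and 115.0 CPM in sh-Con and 140.2, 134.6 and 128.0 in sh2-*TUG1*. All sh2-*TUG1* libraries were above all controls for this gene, an order that 27.1% of all genes showed. *SLC30A10*, a manganese exporter, rose in sh1-*TUG1* by a log2(fold change) of 0.54 (adjusted p = 0.00245) and stood at 0.02 in sh2-*TUG1* (adjusted p = 0.881). *SLC30A9* had −0.20 and −0.38, with adjusted p of 0.0409 and 0.00141, and *SLC30A7* had −0.31 and 0.19, with 0.0458 and 0.162. In sh1-*TUG1* *SLC30A9* no longer passed when any library other than sh-Con replicate 3 was left out, and *SLC30A7* when any other than sh-Con replicate 1 was, with adjusted p of at most 0.134 and 0.128.

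Of 14 importers, 12 were listed. In sh1-*TUG1* 1 was a higher DEG and 1 a lower DEG, and in sh2-*TUG1* 1 was higher and 2 were lower. Of all genes, 2.44% were higher and 2.52% lower DEGs in sh1-*TUG1*, and 4.35% and 8.97% in sh2-*TUG1*. *SLC39A14*, which imports zinc, iron and manganese in the liver, stood at 955.4, 1148 and 1188 CPM in sh-Con, 1498, 1514 and 1519 in sh1-*TUG1* and 2257, 2217 and 1999 in sh2-*TUG1*. It rose in both lines, with a log2(fold change) of 0.46 (SE = 0.0718, adjusted p = 0.00158) and 0.97 (SE = 0.0823, adjusted p = 1.98e-05). *SLC39A4*, the importer of dietary zinc, rose in sh1-*TUG1* (0.59, adjusted p = 7.41e-05) and fell in sh2-*TUG1* (−0.30, adjusted p = 0.00346). *SLC39A8* was near 1.40 CPM in sh-Con, with −1.25 (adjusted p = 0.0326) and −1.36 (adjusted p = 0.00691). In sh1-*TUG1* its adjusted p was at most 0.110 when sh-Con replicate 2, sh1-*TUG1* replicate 1 or sh1-*TUG1* replicate 2 was left out. By adjusted p alone, 2 importers were higher and 2 lower in sh1-*TUG1*, where 12.5% and 12.3% of all genes were. In sh2-*TUG1* 6 were higher and 4 lower, where 21.6% and 21.9% were. The importers' median log2(fold change) was 0.004 and 0.11.

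Of 17 genes of copper handling, 16 were listed, and 1 was a higher and 1 a lower DEG in each line, against 2.44% and 2.52% of all genes in sh1-*TUG1* and 4.35% and 8.97% in sh2-*TUG1*. Ceruloplasmin (*CP*), the copper-carrying ferroxidase of plasma, fell from 381.2, 378.1 and 355.0 CPM in sh-Con to 183.8, 181.3 and 177.6 in sh1-*TUG1* and to 120.7, 120.9 and 134.8 in sh2-*TUG1*. Its log2(fold change) was −1.04 (SE = 0.0428, adjusted p = 5.5e-07) and −1.57 (SE = 0.0581, adjusted p = 2.69e-07). *SLC31A2*, a copper transporter near 1.21 CPM in sh-Con, had 1.00 (adjusted p = 0.0307) and 1.36 (adjusted p = 0.000927). The former was at most 0.126 without sh-Con replicate 2, sh-Con replicate 3 or sh1-*TUG1* replicate 3. The list's median was 0.11 and −0.07.

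Besides *MTF1*, 8 genes of factors that act at metallothionein promoters were listed. In sh1-*TUG1* 0 were DEGs, where 4.96% of all genes were. In sh2-*TUG1* 1 was a higher DEG, where 4.35% of all genes were. By adjusted p alone, 1 was higher in sh1-*TUG1*, where 12.5% of all genes were, and 7 were higher in sh2-*TUG1*, where 21.6% were. In either line 0 were lower, where 12.3% and 21.9% of all genes were. The unadjusted p was under 0.05 for 3 and 7 of them. *NR3C1*, the glucocorticoid receptor, stood at 50.03, 53.1 and 50.9 CPM in sh-Con and at 95.4, 91.8 and 90.8 in sh2-*TUG1*, a log2(fold change) of 0.85 (SE = 0.0535, adjusted p = 3.63e-06). In sh1-*TUG1* it had 0.07 (adjusted p = 0.367). *STAT3*, which carries interleukin 6 signals, rose in both lines (0.47, adjusted p = 9.15e-05, and 0.31, adjusted p = 0.00124). *NFE2L2*, the factor NRF2, had −0.06 (adjusted p = 0.438) and 0.27 (adjusted p = 0.00319), and *USF1* had −0.06 and 0.07 with adjusted p of 0.612 and 0.471.

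Cadmium, heat and oxidants are known to induce a set of stress genes together with the metallothioneins. Of 9 heavy-metal stress genes, 0 were DEGs in either line, where 4.96% and 13.3% of all genes were. By adjusted p alone, sh1-*TUG1* had 3 of them higher and 3 lower, where 12.5% and 12.3% of all genes were, and sh2-*TUG1* had 5 higher and 0 lower, where 21.6% and 21.9% were. The unadjusted p was under 0.05 for 6 in each line. *HMOX1*, haem oxygenase, fell in sh1-*TUG1* (−0.41, adjusted p = 0.000418) and had −0.04 in sh2-*TUG1* (adjusted p = 0.587). *GCLM*, a subunit of the glutathione-making ligase, had −0.08 in sh1-*TUG1* (adjusted p = 0.367) and rose in sh2-*TUG1* (0.45, adjusted p = 0.00033). *HSPA1A*, whose reads are hard to tell from those of the near-identical *HSPA1B*, had 0.24 (adjusted p = 0.0409) and 0.23 (adjusted p = 0.0576). The first of these was not under 0.05, and at most 0.122, when any library other than sh-Con replicate 1 was left out.

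Of 12 glucocorticoid-response genes, 11 were listed. In sh1-*TUG1* 1 was a lower DEG, where 2.52% of all genes were. In sh2-*TUG1* 4 were higher and 1 lower, where 4.35% and 8.97% of all genes were. By adjusted p alone, 2 were higher and 4 lower in sh1-*TUG1*, where 12.5% and 12.3% of all genes were. The counts in sh2-*TUG1* were 5 higher and 3 lower, where 21.6% and 21.9% were. *TSC22D3*, also called GILZ, had 0.44 (adjusted p = 0.0206) and 1.07 (adjusted p = 0.000108), and the clock gene *PER1* had 0.49 (adjusted p = 0.0203) and 0.75 (adjusted p = 0.000969). In sh1-*TUG1* both were lost without sh-Con replicate 2 or sh1-*TUG1* replicate 2, *TSC22D3* also without sh1-*TUG1* replicate 3 and *PER1* also without sh-Con replicate 3, with adjusted p of at most 0.0812 and 0.0830. *ERRFI1*, an inhibitor of the EGF receptor, fell in both lines (−0.90, adjusted p = 3.18e-06, and −0.47, adjusted p = 5.32e-05). *CEBPD* had 0.06 in sh1-*TUG1* (adjusted p = 0.767) and fell in sh2-*TUG1* (−0.79, adjusted p = 0.000678).

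**Figure D5:**
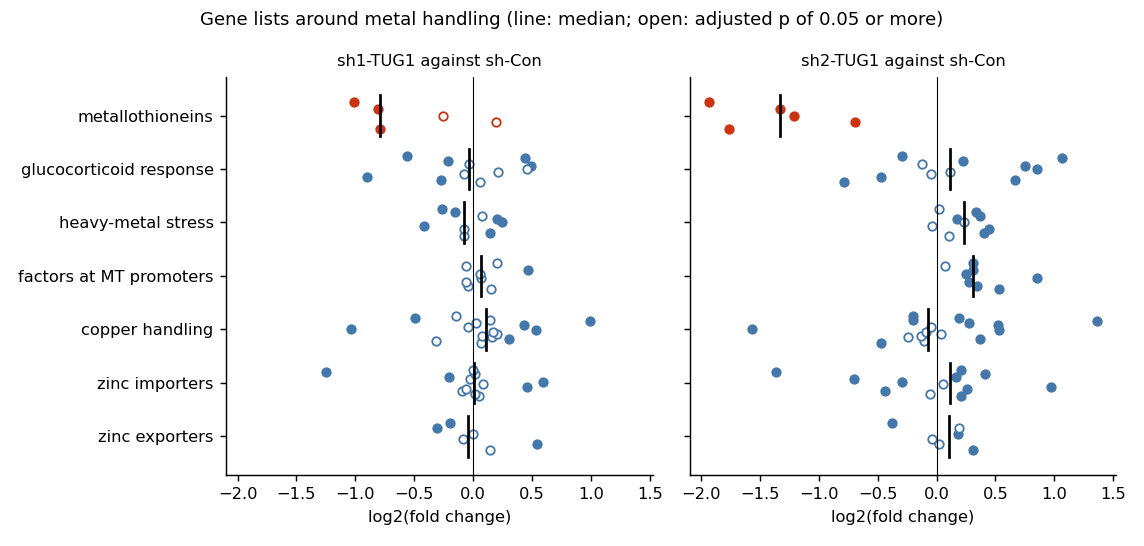
log2(fold change) against sh-Con (x axis) of the genes in 6 lists around metal handling and of the 5 metallothionein genes (y axis), in sh1-*TUG1* (left) and sh2-*TUG1* (right); points are genes, filled where the adjusted p is under 0.05, and lines are medians. The metallothionein median, −0.79 and −1.33, is the lowest of the 7 in both panels, and the other medians lie between −0.08 and 0.31.

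Markers of the hepatocyte lineage moved as well, in both directions. Of 8 markers, 1 was a lower DEG in sh1-*TUG1*, where 2.52% of all genes were. In sh2-*TUG1* 1 was a higher and 2 were lower DEGs, where 4.35% and 8.97% of all genes were. By adjusted p alone, 4 were higher and 2 lower in sh1-*TUG1*, where 12.5% and 12.3% of all genes were. The counts in sh2-*TUG1* were 2 higher and 5 lower, where 21.6% and 21.9% were. *ALB* rose in both lines (0.45, adjusted p = 0.000233, and 0.91, adjusted p = 1.51e-06), and transferrin (*TF*) fell (−0.65, adjusted p = 1.63e-06, and −0.50, adjusted p = 1.07e-05). Transthyretin (*TTR*) rose in sh1-*TUG1* (0.47, adjusted p = 0.000744) and fell in sh2-*TUG1* (−0.82, adjusted p = 0.000363). *PECAM1* had 0.06 and 0.13, with adjusted p of 0.794 and 0.488. The part of any of these in the metallothionein differences was not tested.

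Across the 9 libraries, the members followed the rest of the family to different degrees. The Pearson correlation of log2 CPM with the log2 of the summed CPM of the other metallothionein genes was 0.99 for *MT1E*, 0.98 for *MT2A*, 0.96 for *MT1X*, 0.92 for *MT1G* and 0.63 for *MT1F*. For *MTF1* against the whole sum it was −0.69. The 9 points form 3 groups, so these values mainly restate the group differences and carry no test. Among 11507 genes with a mean of at least 50 counts, those most like the sum by the same measure were *AHSG* (0.997), *CCDC183* (0.994), *SCARB1* (0.994), *ABCC3* (0.993) and *GYS1* (0.990). They were chosen for this pattern, so their differences from sh-Con are a description. Of these, *CCDC183* had the largest, −1.20 on the log2 scale for sh1-*TUG1* (SE = 0.115) and −2.47 for sh2-*TUG1* (SE = 0.153). *AHSG*, the plasma protein fetuin-A, had −0.24 and −0.52.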

How the data were processed

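RNA-seq was done on 9 libraries, 3 per group, grouped by the sample labels. The authors deposited 1 table per knockdown line, with each gene's read count, not normalized, beside FPKM values, the false discovery rate (an adjusted p-value) and the log2 fold change of the authors' own comparison. HISAT2, StringTie and GRCh38 are named in the submitters' processing notes, without versions or roles, and the counting tool was not given in the sources used here. Only counts were tested. The deposited FPKM values use the genomic span as gene length (99.9% of genes within 1% of the span), which would understate genes with long introns, and they served only to describe the tables. The authors' FDR and log2 values were not used. All per-sample columns matched a sample. Rows with no Ensembl identifier held 1.46% and 1.41% of counts and were kept. The lowest gene total over 6 libraries was 152 and 140 counts, so genes below about that level are not in the tables.

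edgeR 4.0.16 in R 4.3.3 (TMM, filterByExpr, quasi-likelihood F test, Benjamini–Hochberg adjustment over all genes) was fitted to the 6 libraries of each table, and to all 9 libraries for sh2-*TUG1* against sh1-*TUG1*. CPM are TMM-normalized over the shared genes, with a prior count of 2 on the log2 scale. *SCO2* has 2 rows, and the one with more counts was used. Totals of 33054291 to 39393293 counts leave a Poisson CV of 1.45% for *MT2A* and 11.02% for *MT1X* at the extremes. Replicates differed by more than read sampling (chi-squared per degree of freedom 6.41 to 25.8 over 10772 genes). The largest values, 22.7 and 25.8, were those of sh-Con replicate 1 with replicates 2 and 3, which gave 10.6 with each other. Next were the pairs with sh2-*TUG1* replicate 3, at 18.1 and 16.2. On simulated counts with 100 genes changed by a log2 size of 1, the test recovered 89% in sh1-*TUG1* (13017 genes, 16 false calls) and 91% in sh2-*TUG1* (12953 genes, 14 false calls). Of 100 genes changed by 0.7 it recovered 73% and 78%. Recovery was scored by adjusted p alone, without the fold limit. Far fewer genes were changed than passed the adjusted p in the data (24.8% and 43.5% of genes). These figures thus do not give the error rate of the DEG calls.

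The alternatives were normalization by RLE or by library size only, no filter, at least 1 CPM in 3 libraries, DESeq2 1.42.0, rows with an Ensembl identifier only, fits of other libraries, a replicate block, the fold change tested against 1.5, other gene lengths, the motif with A or G alone, and leaving out each library. Named genes were all members, in each list the DEGs of both lines and the highest and lowest log2(fold change), neighbouring genes that were DEGs, and the 5 genes most correlated with the sum. *NUDT21*, *NUP93* and *FAM192A* are named for their position, and *CETP*, *BBS2* and *HERPUD1* after their values were seen. The members and lists were chosen with earlier results of these data known. *TUG1* and a gene near the metallothionein genes are not reported here.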

Additional observations from a re-analysis of the deposited data

Results flagged for a closer look

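The 2 knockdown lines differed from each other in several genes reported above, by edgeR's quasi-likelihood test of sh2-*TUG1* against sh1-*TUG1* in the fit of 9 libraries with Benjamini–Hochberg adjustment. Because both lines were compared with the same control libraries, this contrast is also the test of whether their differences from sh-Con differ. All 5 metallothionein genes met it, with log2(fold changes) of −0.917 (*MT2A*), −0.967 (*MT1E*), −0.949 (*MT1G*), −0.884 (*MT1F*) and −0.519 (*MT1X*), each lower in all 3 sh2-*TUG1* libraries than in all 3 sh1-*TUG1* libraries. Of all genes, 21.7% were lower by adjusted p in this contrast, and 27.6% were lower in all 3 libraries without overlap. For *MT2A*, *MT1E* and *MT1X* both lines were below sh-Con, and for *MT1G* and *MT1F* sh1-*TUG1* overlapped it. *MTF1* did not meet it (0.095, adjusted p = 0.489).

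Among zinc transporters, *SLC39A4* was lower in sh2-*TUG1* (−0.887, adjusted p = 6.24e-07), as were *SLC30A10* (−0.515, adjusted p = 0.000824) and *SLC30A9* (−0.181, adjusted p = 0.0269), the last of which was not under 0.05 without replicate 1 or 2 of either knockdown line (at most 0.0978). *SLC39A14* (0.514, adjusted p = 0.000151) and *SLC30A7* (0.501, adjusted p = 0.00109) were higher. *CP* was lower (−0.528, adjusted p = 9.47e-06). Among factors, *NR3C1* (0.782, adjusted p = 3.93e-07) and *NFE2L2* (0.335, adjusted p = 0.000366) were higher. *STAT3* was lower (−0.155, adjusted p = 0.0152), a call lost without sh1-*TUG1* replicate 1 (0.0501) or sh2-*TUG1* replicate 2 (0.0683).

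Of the stress and glucocorticoid-response genes, *GCLM* (0.525), *HMOX1* (0.373), *ERRFI1* (0.433) and *TSC22D3* (0.628) were higher in sh2-*TUG1* and *CEBPD* was lower (−0.841), with adjusted p of at most 0.000824. Of the hepatocyte-lineage markers, *TTR* was lower (−1.28, adjusted p = 1.94e-06), and *ALB* (0.46, adjusted p = 1.24e-05) and *TF* (0.151, adjusted p = 0.00317) were higher. No cause of these differences was tested.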

How the results depend on the processing

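For the members and the list genes named with a test, no called difference changed direction under the alternatives run. The neighbours *NUP93*, *BBS2*, *NUDT21* and *HERPUD1* are not among these genes. In both comparisons with sh-Con, *MT2A*, *MT1E* and *MT1X* kept an adjusted p under 0.05 in every setting but the test against 1.5-fold. Tested against a fold change of 1.5, 1 metallothionein gene was called in sh1-*TUG1* (*MT2A*, adjusted p = 0.0477), 4 in sh2-*TUG1* (all but *MT1F*) and 1 in sh2-*TUG1* against sh1-*TUG1* (*MT1E*, adjusted p = 0.0308). Over all genes this test called 114, 600 and 330 genes in the 3 comparisons, 69, 399 and 263 of them lower, where the DEG criteria called 646, 1726 and 1362. It left 0, 1 and 1 zinc importers. In sh1-*TUG1* it left 1 copper gene, 0 hepatocyte markers and 0 neighbours, in sh2-*TUG1* 1 hepatocyte marker and 1 glucocorticoid-response gene, and between the lines 0 copper genes, 1 glucocorticoid-response gene and 0 neighbours. Library size alone gave 3 copper genes between the lines. With A alone *MT1X* had 2 motif matches, and with G alone *MT2A* and *MT1X* had 2 each. The causes were not tested.

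Leaving out each library in turn gave log2(fold changes) of −1.11 to −0.85 for *MT2A*, −0.89 to −0.64 for *MT1E*, −0.90 to −0.72 for *MT1X*, −0.39 to −0.13 for *MT1G* and 0.06 to 0.30 for *MT1F* in sh1-*TUG1*. In sh2-*TUG1* it gave −2.02 to −1.77, −1.85 to −1.61, −1.42 to −1.26, −1.40 to −1.04 and −0.878 to −0.576 in the same order. Between the lines *MT1X* ranged from −0.618 to −0.429. The number of metallothionein genes called was 3 in sh1-*TUG1*, 4 to 5 in sh2-*TUG1* and 4 to 5 between the lines. In sh1-*TUG1* the lists ranged from 0 to 1 (zinc exporters), 0 to 2 (zinc importers), 1 to 2 (copper) and 1 to 2 (glucocorticoid response). Neighbours ranged from 0 to 1 in sh2-*TUG1* and between the lines, and copper genes from 1 to 2 between the lines.

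Same-numbered libraries of different groups did not deviate together (correlations of −0.194 to 0.050 over 10772 genes), so the numbers were not taken to pair them. With the replicate number as a block the counts were 597, 1646 and 1300 genes, with 3, 5 and 4 metallothionein genes, and *MT1X* between the lines had −0.513 (adjusted p = 0.0671). Depth limits *MT1X* most.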
